A study of Danio rerio with 18 samples.

Results

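Genes of zebrafish skin ionocytes and of waste nitrogen transport were followed in whole larvae exposed to lipopolysaccharide (LPS) at 3 combinations of temperature. The 10 genes were chosen by name, with earlier results of these data known: the urea transporter gene slc14a2, the ammonia channel gene rhcgb, the ion transport genes slc9a3.2, atp6v1aa, ca15a, slc4a1b, slc12a10.2 and trpv6, and the transcription factor genes foxi3a and foxi3b. They are 10 of the 31624 genes in the count table and take up 11 rows, because the symbol ATP6V1A is carried by 2 gene IDs that could not be told apart and are both given. Each library was made from total RNA of 5 pooled whole larvae of the AB strain. The labels give the first-feeding stage, at which the temperature shift began, and per the methods the larvae were challenged some hours later and sampled at the end of the exposure. There were 3 control and 3 LPS libraries for each of 3 combinations, 18 in all, written as incubation × challenge temperature: 24 × 24 °C, 24 × 32 °C and 32 × 24 °C. LPS of Pseudomonas aeruginosa, from a stock in phosphate-buffered saline, was given for 24 h in distilled water. Control larvae stood in distilled water with the same dose of that saline. Every group had thus been moved out of the salt-containing E3 embryo medium. The study chose the 3 combinations for their different mortality with LPS. Of the 3 it was highest at 24 × 32 °C, where most LPS larvae died, and lowest at 32 × 24 °C. Few control larvae died in any of them. The part of mortality in the values was not tested. Larvae incubated at 32 °C reached first feeding at a younger age in hours, so that incubation temperature and age cannot be told apart in them. The methods state that the experiment was run 3 times with broodstock drawn at random from 1 population, but no source used here ties a library to a run, so that p-values measure the spread between these pools.

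Ionocytes are mitochondria-rich cells scattered through the skin of the larva, where they take up ions from fresh water before the gills are functional. Zebrafish has several classes of them. H+-ATPase-rich cells secrete acid, take up sodium and excrete ammonia, Na+,K+-ATPase-rich cells take up calcium, and NCC cells take up chloride together with sodium. Ammonia leaves a fish through Rh glycoproteins in skin and gill, and urea through urea transporters.

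The deposited read counts summed to between 1868228 and 8261920 per library, with the 24 × 24 °C libraries the deepest on the whole. Levels are given as CPM, the counts of a gene scaled to a common library total, after scaling by the trimmed mean of M values, and they do not correct for gene length, so levels are compared only between samples. Of the 11 rows, 10 passed the low-count filter and were tested among 15722 genes. A gene was called a DEG when its edgeR adjusted p was below 0.05 and its fold change at least 1.5. All rows of the keratinocyte marker list had reads in every group. Both 32 × 24 °C libraries numbered 1, the control and the LPS one, stood apart from their groups: the summed level of 9 enterocyte marker genes was 454 CPM in that control against 1255 and 1502 CPM in the other two, and 361 CPM in that LPS library against 2136 and 1414 CPM. Some values without this pair are given for slc14a2, ca15a, rhcgb, slc9a3.2, foxi3a and slc12a10.2, and for correlations between rows. Other differences at 32 × 24 °C, among them those of trpv6, foxi3b, kcnj1a.2 and rhcga, are given with it only. In whole-larva libraries, fewer cells of a type and less RNA per cell cannot be told apart.

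Of the waste transport genes, slc14a2, which encodes a facilitated urea transporter, was lower with LPS in all 3 temperature combinations and was higher after the warm shift in control larvae. In the controls it stood at 1.35, 2.53 and 2.35 CPM (7, 17 and 20 reads) at 24 × 24 °C, at 10.08, 9.60 and 8.15 CPM (27, 25 and 17 reads) at 24 × 32 °C and at 1.43, 2.66 and 2.41 CPM (5, 7 and 6 reads) at 32 × 24 °C. With LPS it stood at 0.707, 0.342 and 0 CPM (5, 2 and 0 reads), at 0, 0.769 and 2.65 CPM (0, 2 and 6 reads) and at 0.430, 0.371 and 0 CPM (1, 1 and 0 reads) in the same order. Every LPS library was below every control library of its own combination, and 3 of the 9 had no read. Such a separation downwards in all 3 combinations was seen in 42 of the genes tested, which is 0.267%. This share is a description and not a test of slc14a2. The gene was chosen with earlier results of these data known, and it was among the genes tested only through its 24 × 32 °C controls. The highest LPS library, replicate 3 at 24 × 32 °C, was above the highest 24 × 24 °C control.

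**Figure D1:**
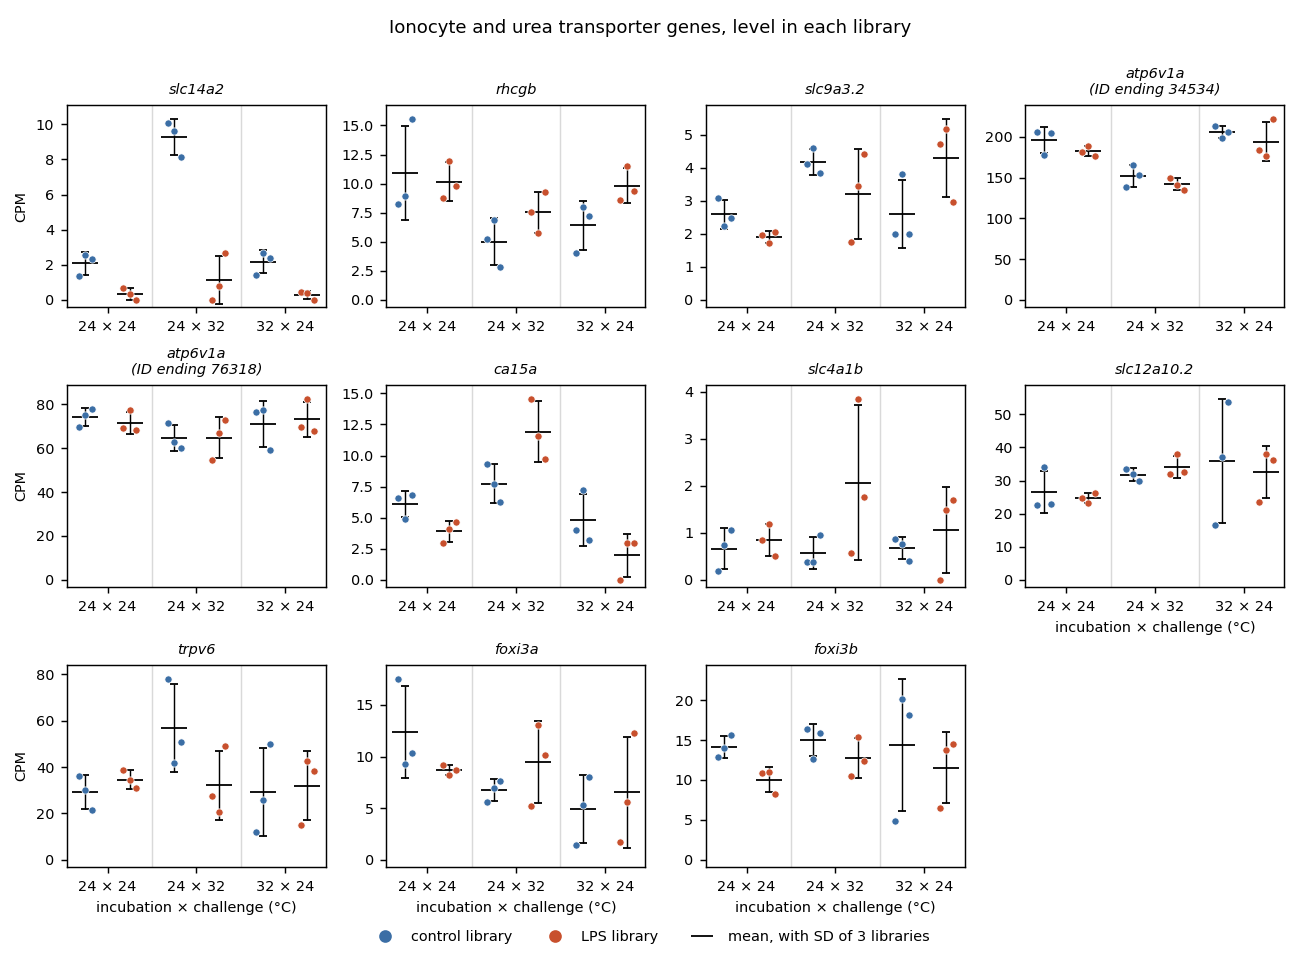
CPM in each of the 18 libraries for the 11 rows of the 10 genes, by incubation and challenge temperature (°C), with control and LPS libraries as separate points and the mean ± SD of each group of 3. The 24 × 32 °C controls of slc14a2, between 8.15 and 10.08 CPM, lie above all other libraries of that gene.

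The order of the group means for slc14a2 ran from the 24 × 32 °C controls (9.28 ± 1.001 CPM, SD, n = 3) through the 32 × 24 °C controls (2.17 ± 0.649), the 24 × 24 °C controls (2.08 ± 0.639) and 24 × 32 °C LPS (1.14 ± 1.36) to 24 × 24 °C LPS (0.350 ± 0.353) and 32 × 24 °C LPS (0.267 ± 0.233). Only the first of these stood clear of its neighbour, and each later step was smaller than the larger SD of the groups it joins. For the steps to and from 24 × 32 °C LPS this holds only through the wide SD of that group. The counts summed over a group and scaled to library size were 4.58 times as high in controls as with LPS at 24 × 24 °C (95% interval 2.05 to 12.0), 7.73 times at 24 × 32 °C (3.71 to 18.6) and 7.71 times at 32 × 24 °C (1.85 to 68.6). These intervals are exact (Clopper-Pearson) and cover counting error only, and the last one rests on 2 reads in the LPS libraries.

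In the test across all genes, slc14a2 was down-regulated with LPS at 24 × 32 °C by a log2 fold change of -2.91 (SE 0.65, edgeR adjusted p = 0.0104). It was the single gene called of the 10 rows, where 1.95% of all genes were called. At 24 × 24 °C the log2 fold change was -2.13 (SE 0.71, edgeR adjusted p = 0.189) and none of the rows was called, against 0.426% of all genes. At 32 × 24 °C it was -2.82 (SE 1.17, edgeR adjusted p = 0.532), with none called against 0.0318% of all genes. DESeq2 likewise called none of the rows in these last 2 comparisons. The unadjusted edgeR p was below 0.05 for 1 row at 24 × 24 °C, beside 6.82% of all genes, and for 2 at 32 × 24 °C, beside 5.38%. Averaged over the 3 combinations with equal weight, slc14a2 was down-regulated by -2.62 (SE 0.50, edgeR adjusted p = 0.000529), the only row called where 2.51% of all genes were.

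The LPS difference of slc14a2 was not shown to vary with temperature. The log2 difference at 24 × 32 °C minus that at 24 × 24 °C was -0.79 (95% interval -2.79 to 1.22, edgeR adjusted p = 0.881), and that at 32 × 24 °C minus that at 24 × 24 °C was -0.69 (95% interval -3.53 to 2.15, edgeR adjusted p = 1). None of the 10 rows was called in either comparison, by edgeR or DESeq2, against 0.00636% and 0% of all genes, and 1 row in each had an unadjusted edgeR p below 0.05, beside 7.54% and 2.57% of all genes. Both intervals hold differences in either direction.

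In control larvae, slc14a2 was up-regulated at 24 × 32 °C over 24 × 24 °C by a log2 fold change of 2.12 (SE 0.44, edgeR adjusted p = 0.00583). The 32 × 24 °C controls lay at the level of the 24 × 24 °C controls, with a log2 difference of -0.00 (95% interval -1.11 to 1.11). The warm-shift comparison and the LPS comparison at 24 × 32 °C use the same 3 control libraries, so that the height of these libraries enters both. The gene passed the low-count filter only through them, being the only libraries of slc14a2 above the filter level of 3.78 CPM. Without the filter the LPS value at 24 × 32 °C was -2.94 (edgeR adjusted p = 0.00451) and the warm-shift value 2.08 (edgeR adjusted p = 0.00463). Over its 26 alternatives the adjusted p of the LPS call at 24 × 32 °C ran from 0.00176 to 0.049. That of the warm shift ran from 0.000213 to 0.0372 over 25 alternatives, and DESeq2 on the 18 libraries gave the gene no adjusted p there, so that it made no call. Leaving out LPS replicate 3 at 24 × 32 °C, the one with 6 reads, moved the LPS value to -4.26 (edgeR adjusted p = 0.00762).

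The ammonia channel gene rhcgb, whose product sits in the apical membrane of H+-ATPase-rich cells, moved the other way with temperature. In controls it stood at 8.28, 8.95 and 15.5 CPM (43, 60 and 132 reads) at 24 × 24 °C, at 5.22, 6.91 and 2.88 CPM (14, 18 and 6 reads) at 24 × 32 °C and at 4.01, 7.98 and 7.24 CPM (14, 21 and 18 reads) at 32 × 24 °C. All 6 control libraries with a 32 °C step were below all 3 kept at 24 °C. It was down-regulated at 24 × 32 °C relative to 24 × 24 °C controls by a log2 fold change of -1.11 (SE 0.34, edgeR adjusted p = 0.0429). With slc14a2 it made 2 of the 10 rows called, where 6.21% of all genes were called. At 32 × 24 °C the difference was -0.81 (SE 0.32, edgeR adjusted p = 0.267) and none of the rows was called, against 0.49% of all genes; DESeq2 called none either, and 2 rows had an unadjusted edgeR p below 0.05, beside 12.7% of all genes.

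The rhcgb call was close to its threshold and was lost in 11 of 26 alternatives. It rested most on replicate 3 of the 24 × 24 °C controls, with 132 reads, and replicate 3 of the 24 × 32 °C controls, with 6. Without the former the value was -0.75 (edgeR adjusted p = 0.246), without the latter -0.87 (adjusted p = 0.175), and without replicate 1 of the 24 × 32 °C controls -1.13 (adjusted p = 0.116); with all counts thinned to the smallest library it was -0.90 (adjusted p = 0.238). With LPS, rhcgb gave 8.76, 12.0 and 9.76 CPM at 24 × 24 °C, 7.55, 5.77 and 9.26 CPM at 24 × 32 °C and 8.59, 11.5 and 9.35 CPM at 32 × 24 °C. The LPS libraries overlapped the controls at 24 × 24 °C and 24 × 32 °C and all lay above the 3 controls at 32 × 24 °C, where the log2 difference was 0.65 (SE 0.34, edgeR adjusted p = 0.946). The LPS difference averaged over the combinations was 0.36 (SE 0.20, edgeR adjusted p = 0.425), opposite in sign to that of slc14a2.

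**Figure D2:**
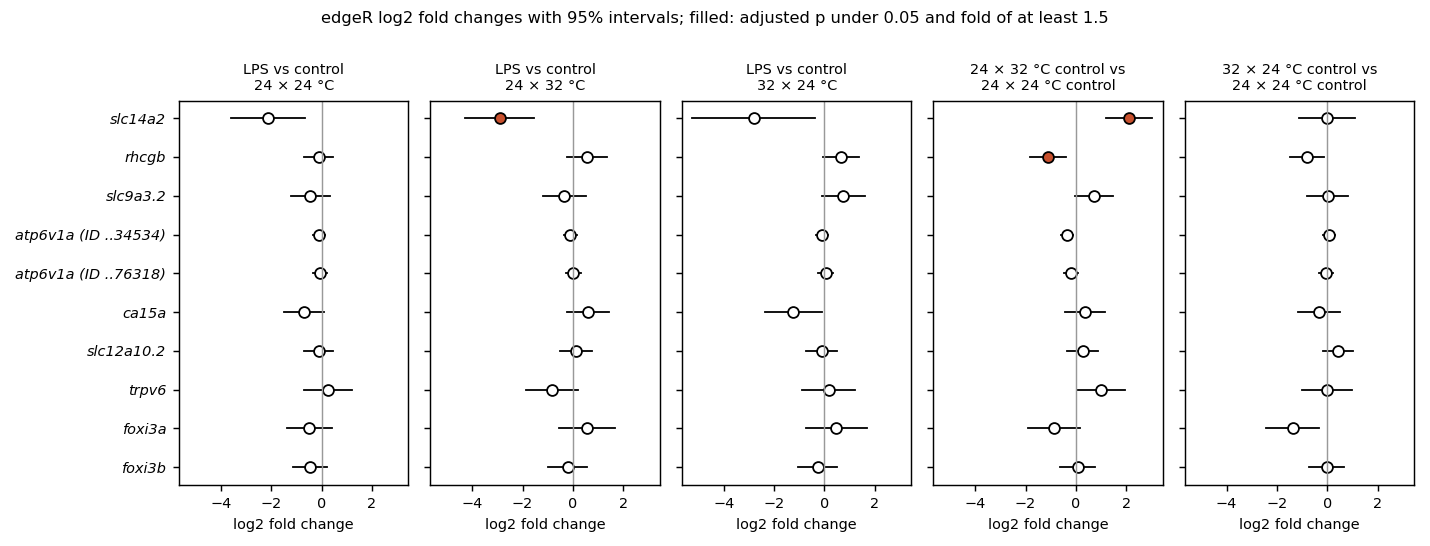
Log2 fold change (horizontal) with its 95% interval for each tested row, in 5 panels: LPS against control at each temperature combination, and each of the other control groups against the one at 24 × 24 °C; filled points are DEGs. The filled points are slc14a2 with LPS at 24 × 32 °C (-2.91) and, in the 24 × 32 °C controls against 24 × 24 °C, slc14a2 (2.12) and rhcgb (-1.11).

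Among the genes of H+-ATPase-rich cells, ca15a encodes a membrane-bound carbonic anhydrase. It stood at 6.54, 4.92 and 6.82 CPM in the 24 × 24 °C controls and 2.97, 4.11 and 4.62 CPM with LPS. At 24 × 32 °C the controls gave 9.33, 7.68 and 6.23 CPM and the LPS libraries 14.5, 11.5 and 9.70 CPM. At 32 × 24 °C the controls gave 4.01, 7.22 and 3.22 CPM and the LPS libraries 0, 2.96 and 2.98 CPM (0, 8 and 7 reads). The LPS libraries of ca15a thus lay below the controls in both combinations challenged at 24 °C and above them in the one challenged at 32 °C, without overlap in any. None of these differences passed the test: the log2 values were -0.70 (SE 0.39, edgeR adjusted p = 0.844), 0.59 (SE 0.39, adjusted p = 0.469) and -1.23 (SE 0.55, adjusted p = 0.865). The log2 difference at 24 × 32 °C minus that at 24 × 24 °C was 1.30 (95% interval 0.15 to 2.44), with an unadjusted p of 0.0277 and an edgeR adjusted p of 0.632.

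The gene slc9a3.2 encodes the apical Na+/H+ exchanger of the same cells and was counted at low depth, with 3 to 21 reads per library. Its controls ran from 2.24 to 3.08 CPM at 24 × 24 °C, from 3.84 to 4.61 CPM at 24 × 32 °C and from 2.01 to 3.80 CPM at 32 × 24 °C. The 24 × 32 °C controls all lay above the 24 × 24 °C controls, with a log2 difference of 0.70 (SE 0.36, edgeR adjusted p = 0.258). With LPS the ranges were 1.71 to 2.05, 1.74 to 4.41 and 2.98 to 5.19 CPM in the same order, so that only at 24 × 24 °C did the LPS libraries all lie below the controls (log2 -0.44, SE 0.38, edgeR adjusted p = 0.966). At 32 × 24 °C the value was 0.74 (SE 0.41, edgeR adjusted p = 0.97). The difference between these LPS effects, 1.18 (SE 0.56), had an unadjusted p of 0.0432 and an edgeR adjusted p of 1.

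Subunit A of the V-type H+-ATPase, which carries the catalytic site of the proton pump, also serves the acidic organelles of other cells. The row ENSDARG00000034534 gave 177 to 206 CPM in the 24 × 24 °C controls, 138 to 166 CPM in the 24 × 32 °C controls and 199 to 214 CPM in the 32 × 24 °C controls. The 24 × 32 °C controls lay below the 24 × 24 °C controls without overlap, by -0.36 on the log2 scale (95% interval -0.60 to -0.12, edgeR adjusted p = 0.0579). Its LPS difference averaged over the combinations was -0.10 (95% interval -0.24 to 0.04). The row ENSDARG00000076318 stayed between 54.6 and 82.3 CPM in all 18 libraries, and its averaged LPS difference lay within -0.17 and 0.17 on the log2 scale (95% interval). These 2 intervals were the narrowest of the 10 rows in that average. The 2 rows are copies of one gene family, and how reads were shared between near-identical copies was not stated for the counting.

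The anion exchanger gene slc4a1b, whose product exports bicarbonate across the basolateral membrane of H+-ATPase-rich cells, had 0 to 10 reads per library and did not pass the filter. Its CPM ran from 0.192 to 1.06 in the 24 × 24 °C controls and from 0.514 to 1.20 with LPS, from 0.373 to 0.959 and from 0.581 to 3.84 at 24 × 32 °C, and from 0.402 to 0.860 and from 0 to 1.70 at 32 × 24 °C. The groups overlapped in every comparison, and no difference was detectable at this depth. This row carries the symbol SLC4A1 and was taken as slc4a1b because the other ID of that symbol is named otherwise.

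The chloride and calcium uptake genes slc12a10.2 and trpv6 and the transcription factor genes varied mostly between libraries of one group. The NCC-cell gene slc12a10.2 encodes an apical sodium-chloride cotransporter of the slc12 family. It stood at 22.7, 34.0 and 22.9 CPM in the 24 × 24 °C controls, 33.6, 31.9 and 29.7 CPM in the 24 × 32 °C controls and 16.6, 37.2 and 53.9 CPM in the 32 × 24 °C controls. With LPS it gave 24.6, 23.3 and 26.2 CPM, then 32.0, 38.0 and 32.6 CPM, and then 23.6, 38.2 and 36.1 CPM. LPS and control libraries overlapped in all 3 combinations, and the averaged LPS difference had a 95% interval of -0.39 to 0.31 on the log2 scale. Between the 32 × 24 °C and 24 × 24 °C controls the log2 difference was 0.41 (SE 0.28, edgeR adjusted p = 0.586). It was 0.77 (edgeR adjusted p = 0.0476) when both 32 × 24 °C libraries numbered 1 were left out, a setting chosen after seeing the data, and -0.00601 without the 32 × 24 °C control replicate 3.

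The calcium channel gene trpv6, of Na+,K+-ATPase-rich cells, stood at 36.0, 30.1 and 21.5 CPM in the 24 × 24 °C controls, 78.0, 41.8 and 50.8 CPM in the 24 × 32 °C controls and 12.0, 25.8 and 49.9 CPM in the 32 × 24 °C controls. With LPS it gave 38.7, 34.2 and 30.8 CPM, then 27.3, 20.4 and 49.0 CPM, and then 15.04, 42.6 and 38.3 CPM. All 24 × 32 °C controls were above all 24 × 24 °C controls, and elsewhere its groups overlapped. That difference was 0.98 on the log2 scale (SE 0.44, unadjusted p = 0.0468, edgeR adjusted p = 0.213). On the 6 libraries of the comparison alone it was called (log2 0.97, edgeR adjusted p = 0.0459), and with the replicate number as a block on those libraries the adjusted p was 0.000317. With LPS at 24 × 32 °C the value was -0.82 (SE 0.48, edgeR adjusted p = 0.411).

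The forkhead genes foxi3a and foxi3b encode transcription factors that specify ionocytes from skin precursors. For foxi3a the 24 × 24 °C controls gave 17.5, 9.24 and 10.35 CPM, the 24 × 32 °C controls 5.60, 6.91 and 7.67 CPM, and the 32 × 24 °C controls 1.43, 5.32 and 8.04 CPM. Both groups with a 32 °C step lay below the controls kept at 24 °C without overlap. The log2 differences were -0.87 (SE 0.48, edgeR adjusted p = 0.292) at 24 × 32 °C and -1.38 (SE 0.50, edgeR adjusted p = 0.238) at 32 × 24 °C, neither of which passed the test. Without both 32 × 24 °C libraries numbered 1 the latter was -0.87. With LPS, foxi3a ran from 8.22 to 9.19 CPM at 24 × 24 °C, just below the lowest control, from 5.23 to 13.1 CPM at 24 × 32 °C and from 1.72 to 12.3 CPM at 32 × 24 °C.

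For foxi3b the controls ran from 12.9 to 15.6 CPM at 24 × 24 °C, from 12.7 to 16.4 CPM at 24 × 32 °C and from 4.87 to 20.1 CPM at 32 × 24 °C. The LPS libraries ran from 8.22 to 11.0 CPM, from 10.46 to 15.4 CPM and from 6.44 to 14.5 CPM. At 24 × 24 °C they lay below the controls without overlap (log2 -0.46, SE 0.33, edgeR adjusted p = 0.941), and the difference averaged over the combinations was -0.31 (SE 0.21, edgeR adjusted p = 0.542).

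Counted over all 11 rows, LPS and control groups did not overlap in 5 rows at 24 × 24 °C, all lower with LPS (slc14a2, slc9a3.2, ca15a, foxi3a and foxi3b), where 18.8% of all genes did not overlap and 9.59% were lower without overlap. At 24 × 32 °C there were 2 such rows (slc14a2 lower, ca15a higher) beside 19.9% of all genes in either direction, and at 32 × 24 °C 3 (slc14a2 and ca15a lower, rhcgb higher) beside 8.5%. Between 24 × 32 °C and 24 × 24 °C controls 6 rows were apart, beside 33.3% of all genes: slc14a2, slc9a3.2 and trpv6 higher, and rhcgb, ENSDARG00000034534 and foxi3a lower. Between 32 × 24 °C and 24 × 24 °C controls rhcgb and foxi3a were apart and lower, beside 20.8%. The median log2 fold change of the tested rows with LPS was -0.28 at 24 × 24 °C, with 9 of 10 below 0, -0.05 at 24 × 32 °C and -0.02 at 32 × 24 °C, while the median of all genes was -0.00, 0.00 and 0.00.

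**Figure D3:**
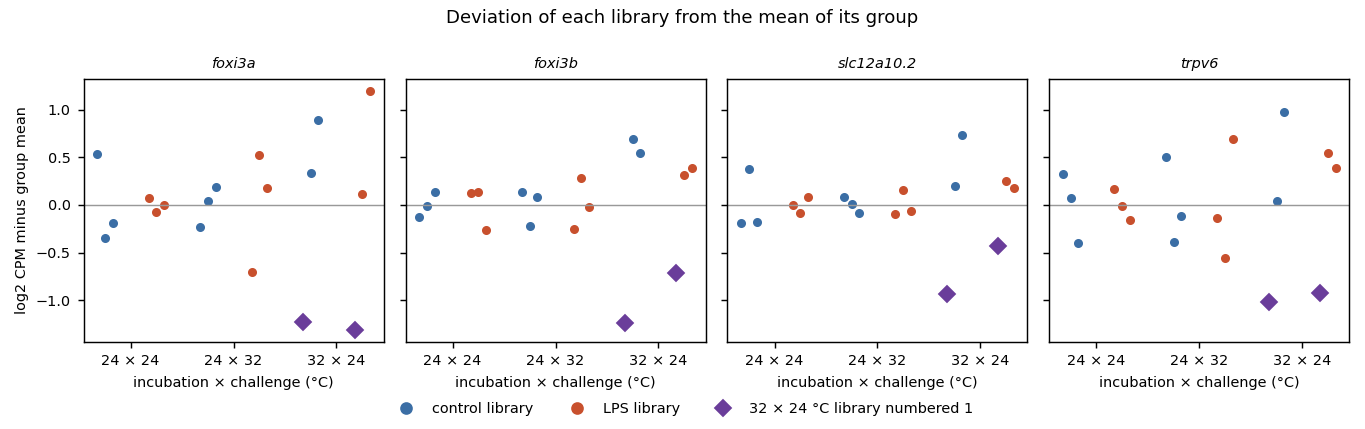
Log2 CPM of foxi3a, foxi3b, slc12a10.2 and trpv6 in each library minus the mean of its group, by group. Diamonds mark both 32 × 24 °C libraries numbered 1, which lie lowest of their group for all 4 genes.

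How far these 4 genes moved together depended on that pair of libraries. The 32 × 24 °C control numbered 1 was the lowest of its group in 7 of the 11 rows, and so was the LPS library numbered 1, against 40.1% and 39.9% of all genes tested. The 24 × 32 °C LPS library numbered 1 was also the lowest in 7 of the 11 rows, against 31.1% of all genes. Lowest in 6 of the 11 rows were 24 × 24 °C control 1, 24 × 24 °C LPS 3 and 24 × 32 °C control 3, against 35%, 38.5% and 34.4%. Such a rank was thus not particular to the 32 × 24 °C pair. The summed level of the list of K+-secreting and shared ionocyte genes was 437 CPM in the 32 × 24 °C control numbered 1 against 780 and 892 CPM. It was 524 CPM in the 32 × 24 °C LPS library numbered 1 against 1041 and 872 CPM. Without the pair, the log2 differences with LPS at 32 × 24 °C were -3.48 for slc14a2, -0.82 for ca15a, 0.46 for rhcgb and 0.49 for slc9a3.2, and the control difference of rhcgb was -0.54. None of these was called with or without it. Within groups, the log2 CPM of slc12a10.2 and foxi3b had a correlation of r = 0.832 over the 18 libraries and -0.03 over the 16 without the pair. For foxi3a and foxi3b it went from 0.796 to 0.228, for slc12a10.2 and trpv6 from 0.717 to 0.227, and for trpv6 and foxi3b from 0.683 to -0.121. Other pairs of rows kept their correlation without these libraries: slc14a2 and slc9a3.2 had 0.663 and then 0.632, slc9a3.2 and ENSDARG00000076318 had 0.587 and then 0.747, and slc14a2 and ENSDARG00000076318 had 0.535 and then 0.681. Some negative correlations were kept as well. The pair slc14a2 and ENSDARG00000034534 had -0.498 and then -0.457, and slc9a3.2 with that row had -0.454 and then -0.409. The 2 ATP6V1A rows had -0.436 with each other and then -0.565. These are descriptions over libraries that share a pool of larvae for all genes. Of the variance of log2 CPM, 84.8% lay between the 6 groups for slc14a2, 83.1% for ENSDARG00000034534, 68.1% for ca15a, 59.1% for slc9a3.2 and 58.4% for rhcgb. It was 37.4% for foxi3a, 32.3% for trpv6, 28.2% for ENSDARG00000076318, 20.7% for slc12a10.2 and 16.3% for foxi3b. These shares are not corrected for the number of groups. Means of so few libraries differ by sampling alone, so that a gene without group differences would also have a sizeable share.

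The 3 genes with a pattern most like slc14a2 over the 18 libraries, by Pearson correlation of log2 CPM among 15712 genes, were ARHGAP10 (r = 0.874), kcnj1a.2 (r = 0.867) and sst6 (r = 0.861). Those most like the mean of the standardised levels of the tested rows were slco2b1 (r = 0.873), ESRP2 (0.855), MSL1 (0.848), ITM2B (0.847) and arhgap17b (0.846). All of the latter were lowest of their group in both 32 × 24 °C libraries numbered 1. For slco2b1 these stood at 11.5 CPM against 30.0 and 19.3 CPM in the controls, and at 11.2 CPM against 24.5 and 25.5 CPM with LPS. Likeness to that mean without this pair was not computed.

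Of these, kcnj1a.2 is an inwardly rectifying potassium channel gene of the family whose copy kcnj1a.1 marks K+-secreting ionocytes. Its controls stood at 5.196, 2.68 and 4.35 CPM at 24 × 24 °C, 10.4, 11.5 and 9.59 CPM at 24 × 32 °C and 0.860, 3.80 and 6.43 CPM at 32 × 24 °C. With LPS it gave 1.70, 0.514 and 0.514 CPM, then 1.74, 0.769 and 1.76 CPM, and then 0.859, 1.85 and 0.425 CPM. The LPS libraries were below the controls without overlap at both challenge temperatures after incubation at 24 °C, and overlapped them at 32 × 24 °C through control replicate 1. It was down-regulated at 24 × 32 °C (log2 -2.91, SE 0.67, edgeR adjusted p = 0.013) and in the average of the combinations (log2 -2.17, SE 0.38, edgeR adjusted p = 0.000847). At 24 × 24 °C the value was -1.92 (edgeR adjusted p = 0.156) and at 32 × 24 °C -1.67 (edgeR adjusted p = 0.843). Because kcnj1a.2 was picked here for its likeness to slc14a2 over these same libraries, similar LPS differences were built into the choice. They are no independent support for those of slc14a2. The kcnj1a genes are near copies of each other, and reads may have been split between them.

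**Figure D4:**
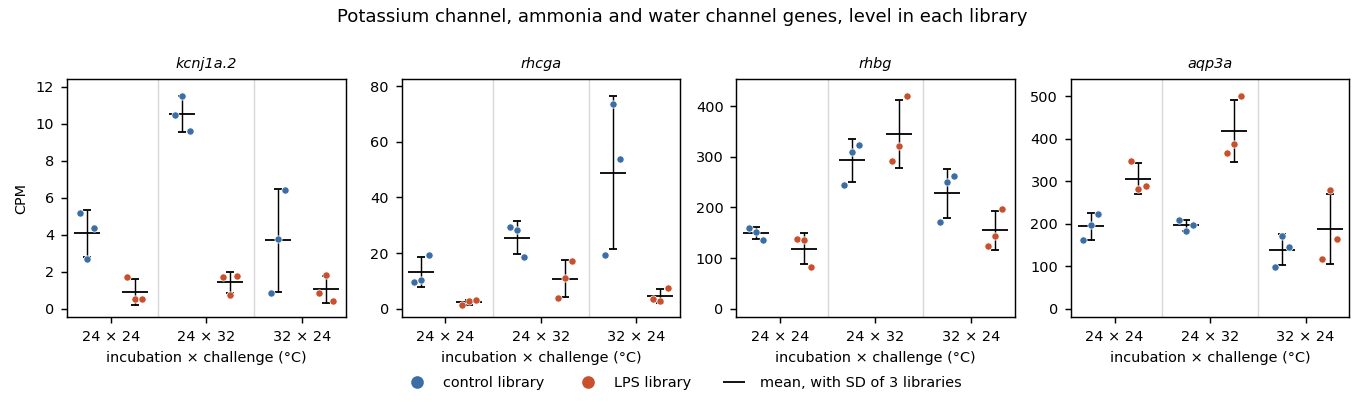
CPM in each of the 18 libraries for kcnj1a.2, rhcga, rhbg and aqp3a, by incubation and challenge temperature (°C), control and LPS libraries apart, with the mean ± SD of each group of 3. The LPS libraries of rhcga lie below the controls in all 3 combinations, and those of aqp3a lie above them in the 2 combinations incubated at 24 °C.

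Among the Rh glycoprotein and urea transporter genes, 8 rows were tested. With LPS at 24 × 32 °C 1 was up-regulated (aqp3a) and 1 down-regulated (slc14a2), where 1.95% of all genes were called. In the average of the combinations 1 was up-regulated (aqp3a) and 2 down-regulated (slc14a2 and rhcga), beside 2.51% of all genes. The list includes slc14a2 and rhcgb, so that their calls repeat those given above. The ammonia channel gene rhcga stood at 9.81, 10.29 and 19.3 CPM in the 24 × 24 °C controls against 1.41, 2.74 and 3.08 CPM with LPS. At 24 × 32 °C it gave 29.5, 28.4 and 18.7 CPM against 4.07, 11.1 and 17.2 CPM, and at 32 × 24 °C 19.2, 73.7 and 53.9 CPM against 3.44, 2.96 and 7.65 CPM. Unlike rhcgb, rhcga was thus lower with LPS without overlap in every combination, with an average of -2.39 (SE 0.35, edgeR adjusted p = 0.000576).

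Within the combinations challenged at 24 °C the calls of rhcga depended on the fit, while at 24 × 32 °C it was called in none of 26 alternatives (log2 -1.20 with all libraries, edgeR adjusted p = 0.266). At 32 × 24 °C its log2 fold change was -3.38 (SE 0.62, edgeR adjusted p = 0.0704), and with the replicate number as a block on the 6 libraries it was -3.37 (edgeR adjusted p = 0.000117). At 24 × 24 °C it was -2.58 (SE 0.64, edgeR adjusted p = 0.087), and DESeq2 gave -2.53 (adjusted p = 0.000693). The aquaglyceroporin gene aqp3a, whose product passes water, glycerol and urea, was up-regulated at 24 × 32 °C by 1.09 (SE 0.25, edgeR adjusted p = 0.0295, lost in 6 of 26 alternatives) and on average by 0.73 (SE 0.14, edgeR adjusted p = 0.0064). In the 24 × 32 °C controls, where 6.21% of all genes were called, 2 of the 8 rows were up-regulated and 1 down-regulated over 24 × 24 °C. They were slc14a2, rhbg (0.98, SE 0.21, edgeR adjusted p = 0.00841), the basolateral Rh glycoprotein, and rhcgb. In the 32 × 24 °C controls edgeR called none of the 8 rows, beside 0.49% of all genes. There rhbg lay above the 24 × 24 °C controls without overlap (means of 227 and 149 CPM), beside 20.8% of all genes without overlap. The study's own DESeq2 list holds rhcga as up-regulated in these controls. Here its groups overlapped, at 48.9 ± 27.6 against 13.1 ± 5.33 CPM (SD, n = 3).

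Few rows of the ionocyte class lists were called with LPS, and with at most 2.51% of all genes called in any LPS comparison, about as few would be found in lists this short. None of the 9 tested rows of the H+-ATPase-rich list, the 8 of the Na+,K+-ATPase-rich list, the 6 of the NCC list or the 8 of the transcription factor and Notch list was called by edgeR with LPS, within a combination or in the average. Of the 14 rows of the K+-secreting and shared ionocyte list, kcnj1a.2 alone was called, at 24 × 32 °C and in the average. In the controls at 24 × 32 °C, where 6.21% of all genes were called, 1 row of the H+-ATPase-rich list was down-regulated (rhcgb). So was 1 of the Na+,K+-ATPase-rich list (SLC8A1, ENSDARG00000013422, a sodium-calcium exchanger gene, log2 -1.44, SE 0.44, edgeR adjusted p = 0.0374, lost in 6 of 26 alternatives). Of 22 V-ATPase subunit rows none was called with LPS. In the 24 × 32 °C controls 18 of the 22 were below 0 with a median of -0.21, and 1 was down-regulated (atp6v0ca, log2 -0.65, SE 0.13, edgeR adjusted p = 0.0045).

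The summed level of keratinocyte markers was lower with LPS and higher in the 24 × 32 °C controls, as was the level of slc14a2, and the part of these cells in its values was not tested. The summed level of the 12 keratinocyte marker rows was 10713 to 13718 CPM in controls and 5036 to 10617 CPM with LPS at 24 × 24 °C, 16639 to 23385 and 8935 to 13198 CPM at 24 × 32 °C, and 12016 to 15286 and 7867 to 11179 CPM at 32 × 24 °C. The sum was thus lower with LPS in every combination and highest in the 24 × 32 °C controls, and it is carried mostly by krt4, krt5 and krt91. The rows taken singly did not share a direction: with LPS 6 of 12 were above 0 at 24 × 24 °C (median -0.17), 7 at 24 × 32 °C (median 0.24) and 7 at 32 × 24 °C (median 0.04). At 24 × 32 °C 2 of the 12 rows were down-regulated with LPS (krt5 by -1.62, edgeR adjusted p = 0.0258, lost in 5 of 26 alternatives, and krt91 by -1.42, edgeR adjusted p = 0.02, lost in 4) and 1 was up-regulated (cdh1 by 1.27, edgeR adjusted p = 0.0402, lost in 11 of 26 alternatives), and krt91 was up-regulated in the controls by 1.21 (edgeR adjusted p = 0.0188, lost in 6). Of all genes, 1.95% were called with LPS at 24 × 32 °C and 6.21% between these controls and those at 24 × 24 °C. In the average of the combinations, where 2.51% of all genes were called, 4 rows were down-regulated and 2 up-regulated. The call of krt4 among them was lost in 18 of 24 alternatives. Of the 6 mucous cell rows, 2 were down-regulated with LPS at 24 × 24 °C, beside 0.426% of all genes called. At 24 × 32 °C 1 was down-regulated and 1 up-regulated, beside 1.95%, and at 32 × 24 °C 1 was down-regulated, beside 0.0318%. The mucin gene muc5.2 was among the down-regulated rows each time, by -3.89, -3.31 and -4.53 (edgeR adjusted p = 0.00151, 0.0179 and 0.0065). The other row down-regulated at 24 × 24 °C was muc5.1, a call lost in 15 of 26 alternatives. In the 24 × 32 °C controls, where slc14a2 was higher, all 6 mucous cell rows were below 0 (median -0.97). None of the 5 erythroid or 8 enterocyte marker rows was called by edgeR with LPS. Of 15 pronephros rows 1 was, in the average, where 2.51% of all genes were called. These calls depend on the fit. At 24 × 24 °C the study's own DESeq2 lists hold slc4a1a, fabp2, apoa4b.1 and anpepb as down-regulated with LPS and slc12a3 as up-regulated. In the edgeR fit all 5 erythroid rows were below 0 with LPS at 24 × 24 °C (median -0.48), with summed levels of 594 to 683 CPM in controls and 394 to 525 CPM with LPS. The enterocyte rows were below 0 in 7 of 8 at 24 × 24 °C (median -0.43) and above 0 in 7 of 8 at 24 × 32 °C (median 0.36). The part of these cells in the values of the 10 genes was not tested.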

How the data were processed

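RNA of whole larvae was sequenced as poly(A)-selected, paired-end libraries. Per the labels and methods, the authors trimmed reads with cutadapt 1.12, aligned them to GRCz10 with TopHat2 2.1.0 and deposited raw read counts per gene from HTSeq 0.6.1p1; settings for multi-mapped reads and strand are not given in the sources used here. In the count table, genes carry Ensembl IDs, and symbols came from a gene name table and, for rhcgb, from ID and name pairs in the supplementary lists.

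Counts were fitted with edgeR 4.0.16 (R 4.3.3): filterByExpr over the 6 groups, TMM scaling and a robust quasi-likelihood fit of 6 group means on all 18 libraries, with Benjamini-Hochberg adjustment over the 15722 genes tested. This call rule (adjusted p below 0.05, fold change of at least 1.5) was applied to LPS against control at each combination and on average, to controls between temperatures and to differences of LPS effects. Standard errors came from the fitted variances, and log2 CPM used a prior count of 2. The fit was also run on simulated data. The outcome of that run is not given here, so it adds no assurance to the p-values. Alternatives were DESeq2 1.42.0, DESeq2 size factors, no filter, a replicate block, fits restricted to the compared libraries, thinning to 1868228 counts and each library left out.

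The members and the lists (H+-ATPase-rich, Na+,K+-ATPase-rich, NCC, K+-secreting and shared ionocyte genes, ionocyte transcription factors and Notch signals, Rh glycoproteins and urea transporters, V-ATPase subunits, urea cycle, hormonal control, keratinocyte, mucous cell, pronephros, erythroid, enterocyte; 159 names, 10 without a row) were chosen with earlier results of these data known. Named from a list were called genes, up to 4 by adjusted p, and otherwise at most 2 with the smallest p (given as counts only); the genes most like slc14a2 and like the members' mean were the 3 and 5 with the highest correlation.

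Groups share replicate numbers. As deviations from group means, same-numbered control and LPS pools had correlations between -0.1 and 0.117 at 24 × 24 °C and between -0.0317 and 0.182 at 24 × 32 °C. The 3 pairs at 32 × 24 °C had 0.195 or more, up to 0.559, all over 0.1. Unless a block is named, the values given at 32 × 24 °C nevertheless come from the fit without one, which leaves this pairing out. Of all genes, 5 were called with LPS there without a block and 6 with the block on all 18 libraries. With the block on the libraries of that comparison alone, 121 were called. The block changed no call of a member in that comparison (0 called with and without it). Between groups in general, 45 same-number pairs had a median of 0.0175.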

Additional observations from a re-analysis of the deposited data

How the results depend on the processing

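The number of genes called among the 10 rows was the same under every alternative run for LPS at each temperature combination, for the average and for both differences of LPS effects. In the 24 × 32 °C against 24 × 24 °C controls it was 2 and became 1 with DESeq2 on the 18 libraries, which gave slc14a2 no adjusted p, and 1 after thinning to the smallest library. It ranged from 1 to 2 when single libraries were left out, with rhcgb the gene lost, and was 3 with the replicate block on the 6 libraries. In the 32 × 24 °C against 24 × 24 °C controls it was 0 and became 1 (slc12a10.2) without both 32 × 24 °C libraries numbered 1. The value of slc12a10.2 there ran from -0.00601 to 0.774 when single libraries were left out, and the 32 × 24 °C minus 24 × 24 °C difference of LPS effects of slc14a2 from -1.09 to 0.0933, and the 24 × 32 °C minus 24 × 24 °C one from -2.13 to -0.012; the cause was not tested. A replicate block on all 18 libraries changed no call of the 10 genes. The number of all genes called was unstable: with LPS 67 at 24 × 24 °C (45 to 372 over the alternatives, 18 to 140 without single libraries), 307 at 24 × 32 °C (258 to 659, 93 to 455) and 5 at 32 × 24 °C (1 to 121, 0 to 31). In the controls it was 976 (658 to 1616, 400 to 1199) and 77 (44 to 242, 12 to 138), and for the first difference of LPS effects 1 (1 to 40, 0 to 2). Depth limits slc14a2, slc4a1b and slc9a3.2, with at most 27 reads per library: thinned to the smallest library, the LPS value of slc14a2 at 24 × 24 °C was -1.11.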

Other observations

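Hormones that control ion uptake and the enzymes that make urea were looked at beside the transporters. Of 11 tested rows for hormonal control none was called by edgeR with LPS within a combination, beside at most 1.95% of all genes. The study's own DESeq2 lists hold cyp24a1 and fkbp5 as up-regulated with LPS at 24 × 24 °C. In the average of the combinations, where 2.51% of all genes were called, 1 row was up-regulated. This was cyp24a1, which encodes the enzyme that inactivates vitamin D, with a log2 fold change of 2.04 (SE 0.39, edgeR adjusted p = 0.00657). Its controls stood at 12.1, 12.4 and 7.05 CPM at 24 × 24 °C against 33.6, 46.4 and 41.1 CPM with LPS. At 32 × 24 °C they stood at 2.87, 3.42 and 4.42 CPM against 6.87, 47.1 and 21.7 CPM, and at 24 × 32 °C the groups overlapped, with 27.6, 12.7 and 14.4 CPM against 37.2, 18.4 and 80.3 CPM.

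In the 24 × 32 °C controls 2 of these rows were up-regulated over 24 × 24 °C, where 6.21% of all genes were called. The prolactin receptor gene prlra, of a hormone of freshwater ion uptake, rose by 1.16 on the log2 scale (SE 0.20, edgeR adjusted p = 0.00138), from 12.9, 15.2 and 12.7 CPM to 32.5, 29.9 and 28.8 CPM. The parathyroid hormone gene pth1b rose by 1.78 (SE 0.44, edgeR adjusted p = 0.0156), from between 1.15 and 1.34 CPM to between 2.88 and 5.76 CPM. Its call was lost in 6 of 23 alternatives, among them thinning to the smallest library (1.52, edgeR adjusted p = 0.126). Of the 9 urea cycle and nitrogen excretion rows, 8 were below 0 in the average of the LPS comparisons, with a median of -0.39 beside -0.00 for all genes. One, ASL, the gene of argininosuccinate lyase, was down-regulated (log2 -0.67, SE 0.18, edgeR adjusted p = 0.0391), a call that was lost in 12 of 24 alternatives. In that average 2.51% of all genes were called. Within the combinations edgeR called none of the 9 rows with LPS, beside at most 1.95% of all genes. The study's own DESeq2 lists hold uox and arg2 as down-regulated with LPS at 24 × 24 °C.

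The pronephros gene called in the average of the LPS comparisons was slc12a3, the kidney sodium-chloride cotransporter gene and a relative of slc12a10.2 (log2 0.93, SE 0.21, edgeR adjusted p = 0.0154). The intestinal gene vil1 was down-regulated in controls at 24 × 32 °C (log2 -1.45, SE 0.39, edgeR adjusted p = 0.0396, lost in 12 of 26 alternatives). So was the mucous cell gene agr2 (log2 -1.59, SE 0.39, edgeR adjusted p = 0.0195, lost in 3 of 26 alternatives).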
